A study of Mus musculus with 48 samples.

Results

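The genes described here are 10 members of the CXC chemokine system of the mouse, 8 ligands (*Cxcl1*, *Cxcl2*, *Cxcl3*, *Cxcl5*, *Cxcl12*, *Cxcl13*, *Cxcl14*, and *Cxcl16*) and 2 receptors (*Cxcr2* and *Cxcr4*). They were taken by name from the 34586 genes of a single-cell RNA count table, and all 10 had counts. The study compared mice with collagen-induced arthritis (CIA), an autoimmune model of inflammatory joint disease, with healthy mice in joint, lung, muscle, skin, and spleen. RNA was counted with Seq-Well, in which single cells are caught in wells that each hold 1 barcoded bead, and transcripts are told apart by unique molecular identifiers (UMIs).

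All 10 mice were male DBA1/J mice aged 8 to 12 weeks at the start, 4 healthy (H3, H4, H6, and H7) and 6 with CIA (S1, S2, S3, S5, S6, and S8). CIA mice had been given 100 µg of bovine type II collagen in complete Freund's adjuvant at the tail base and a booster in incomplete adjuvant on day 20, while the controls were given phosphate-buffered saline. Arthritis was severe in S1, S2, and S3 and mild in S5, S6, and S8. The severe mice and H3 carried the experiment name 2CIA and the others CIA, so that severity and experiment cannot be told apart among the CIA mice. The whole knee joint was taken from 3 healthy mice and 5 CIA mice, without H6 and S2, and the other organs from 4 and 6, which made 48 samples. Organs were frozen before dissociation, and immunized mice free of arthritis were not part of the design, so that adjuvant and arthritis cannot be told apart either.

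Of 13240 cells, 12096 carried a cell label of the authors. A sample held 30 to 1989 annotated cells and 17748 to 1645734 UMIs, and the median cell held 675 UMIs and 409 genes. The markers that the study used for each label were highest under their own label for 8 of 13 labels, but not for dendritic cells, monocytes, T cells, myocytes, and neutrophils. Cells labelled myocytes had low counts of their own marker list (82.5 CPM, counts per 1000000 UMIs, against 1928 in endothelial cells), so that the label is used here only as a name. Of all barcodes, 50 occurred in more than 1 library, most of them (34) in muscle and spleen of S8. *Cxcl2* was itself a marker for macrophages and *Cxcl3* for monocytes, and levels by label are therefore given as a description without a test.

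Chemokines are small secreted proteins that guide white blood cells along gradients. *Cxcl1*, *Cxcl2*, *Cxcl3*, and *Cxcl5* encode ligands of Cxcr2, the main receptor by which neutrophils leave blood and bone marrow for inflamed tissue, and all of these ligands can be induced by interleukin-1 and by NF-κB, the transcription factor of inflammatory signalling. Cxcl12 acts through Cxcr4 and holds neutrophils and blood stem cells in the marrow, Cxcl13 draws B cells through Cxcr5, Cxcl16 binds Cxcr6 on T cells, and Cxcl14 is a ligand of skin and connective tissue whose receptor is less settled.

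The genes of these Cxcr2 ligands lie in the same region of chromosome 5 of the mouse genome GRCm38, all on the plus strand. *Cxcl5* is at chr5:90759360-90761624, *Cxcl3* at chr5:90786103-90789600, *Cxcl1* at chr5:90891241-90893115, and *Cxcl2* at chr5:90903871-90905938. *Cxcl13* is further along at chr5:95956951-95961068, *Cxcl12* at chr6:117168535-117181367, *Cxcl14* at chr13:56288643-56296551, and *Cxcl16* at chr11:70453983-70459984. The receptors are both on chromosome 1, *Cxcr2* at chr1:74153989-74161246 and *Cxcr4* at chr1:128588199-128592293. The κB motif, written here as GGG, any 2 bases, and TTTCC, was searched on both strands from 250 bases before to 50 bases after the RefSeq start of each gene (GRCm38.p6). It was present in 1.63% of 32851 promoters. Of the 8 members with a promoter in that set, 3 held it, namely *Cxcl1*, *Cxcl2*, and *Cxcl3*. They had the same 10 letters, which were found in 0.0883% of promoters. The stretches are shown because these 3 genes share the motif while their UMIs lay in different cells, with the motif in capitals and 10 bases on each side.
Cxcl1 (chr5:90891164-90891193, plus strand): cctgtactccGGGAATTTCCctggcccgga
Cxcl2 (chr5:90903792-90903821, plus strand): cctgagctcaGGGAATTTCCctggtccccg
Cxcl3 (chr5:90786018-90786047, plus strand): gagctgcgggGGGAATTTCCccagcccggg
The motif began 71 bases before the start of *Cxcl1*, 97 before that of *Cxcl2*, and 73 before that of *Cxcl3*. *Cxcl1* and *Cxcl2* each held 1 more match to the searched form, within 20 bases of the first. No match was found in the windows of *Cxcl12*, *Cxcl13*, *Cxcl14*, *Cxcr2*, and *Cxcr4*. A match describes letters only and is no sign of a factor bound there.

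The ligands differed in the cells that held their UMIs. Fibroblasts held 95.6% of the 365 *Cxcl5* UMIs, 82.3% of the 1450 *Cxcl14* UMIs, 72.6% of the 789 *Cxcl12* UMIs, and 51.1% of the 4531 *Cxcl1* UMIs. Most other *Cxcl12* UMIs were in endothelial cells (18.6%), the lining of vessels, and *Cxcl1* was also counted in basal III cells, keratinocytes of the skin (19.0%). *Cxcl3* was a macrophage gene here, with 73.6% of its 227 UMIs, and 133 of these 227 came from lung macrophages alone.
*Cxcl2*, the most abundant member with 8021 UMIs, was held by granulocytes (38.8%) and macrophages (27.8%), so that the label with the most *Cxcr2* UMIs also had the most UMIs of a Cxcr2 ligand. *Cxcl16* was split between macrophages (45.9% of 290 UMIs) and basal III cells (26.9%). *Cxcl13* had only 48 UMIs in all, in 21 cells. These shares follow the number and depth of the cells sampled as well as the level per cell, and the shares of one gene should not be read as levels of another.

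**Figure D1:**
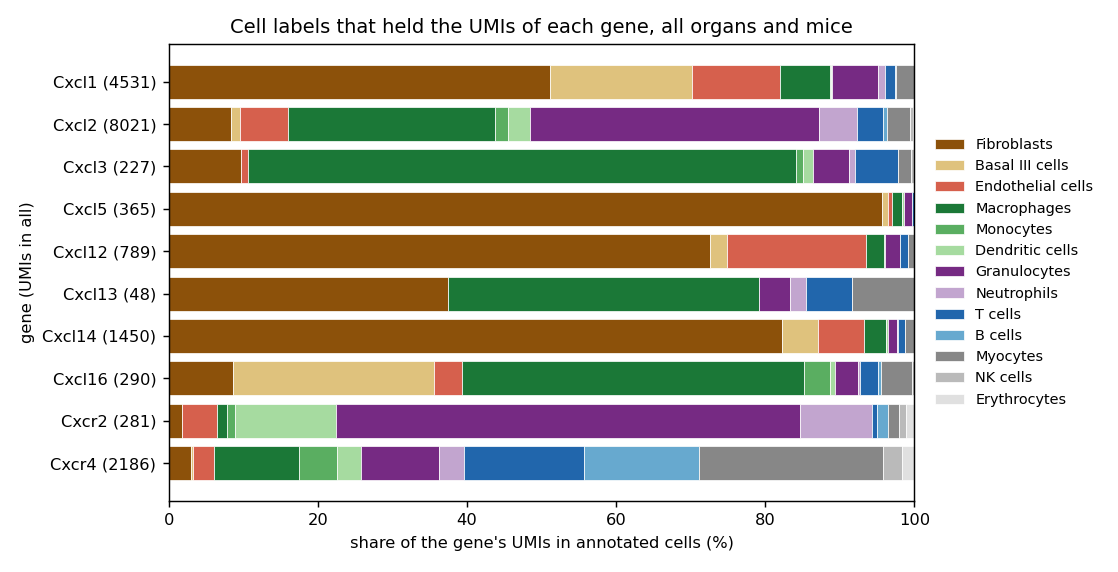
Share of each gene's UMIs (horizontal axis, %) held by each cell label, over all organs and mice, with the UMIs of the gene beside its name. *Cxcl5*, *Cxcl12*, and *Cxcl14* were mainly in fibroblasts (brown), *Cxcl2* and *Cxcr2* in granulocytes (purple), and *Cxcl3* in macrophages (dark green), whereas *Cxcr4* was spread over lymphoid, myeloid, and myocyte labels.

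Shares of cells with a UMI were read over the pooled cells of all mice. Most joint granulocytes came from S5, so that these shares are not levels by mouse. In the joint, 50.1% of 603 fibroblasts had a *Cxcl1* UMI (32.5% once every cell was thinned to 400 UMIs), against 13.8% of 759 granulocytes and 11.2% of 161 T cells, which are not known as sources. *Cxcl2* was counted in 59.4% of joint granulocytes and 53.6% of joint macrophages but also in 24.2% of joint T cells. After thinning these shares were 42.5%, 35.9%, and 13.03%. The 24.7% of joint fibroblasts with a *Cxcl2* UMI (11.1% after thinning) were close to that share of T cells, so that this share alone does not set fibroblasts apart from cells not known as a source. The median depth of the labels was similar, at 826 to 965 UMIs in joint T cells, granulocytes, and fibroblasts. In the spleen, *Cxcl1* was in 0.254% of B cells and *Cxcl2* in 2.88%.

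Across 35 organ and cell label profiles, *Cxcl12* and *Cxcl14* were the pair of members most alike (r = 0.84 on the log scale), and *Cxcl14* and *Cxcr4* the least (r = -0.40). These profiles share mice and libraries, and the values are a description. Among 12895 genes compared, the nearest to *Cxcl12* was *Cacna2d1* (r = 0.94), to *Cxcl14* *Htra1* (r = 0.92), to *Cxcl1* *Thbs1* (r = 0.87), to *Cxcl2* *Sgms2* (r = 0.86), and to *Cxcl16* *Rbm47* (r = 0.87). *Cxcl3* was most like *Cd207* (r = 0.88), with *Mmp12*, the macrophage elastase, close after (r = 0.81). *Cxcl5* followed *Gm15242* (r = 0.88), *Cxcr4* followed *Unc93b1* (r = 0.83), and *Cxcr2* followed *Mmp9* (r = 0.91), a protease stored in neutrophil granules. *Cxcl13* had too few UMIs for this measure.

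*Cxcl5* gave the clearest contrast between CIA and healthy joints. In fibroblasts of the joint, the cells that line and support it, no *Cxcl5* UMI was found in the 3 healthy mice (192 cells with 166413 UMIs). In CIA fibroblasts the level was 126 CPM in S1, 2113 CPM in S3, and 78.0 CPM in S5. All 3 CIA mice with enough fibroblasts (10 or more) were thus above all healthy mice, which were at 0.
The CIA counts were 27 UMIs in 10 of 182 cells of S1, 145 UMIs in 28 of 56 cells of S3, and 22 UMIs in 7 of 160 cells of S5, so that 74.7% of them came from S3. The zero in healthy mice allows up to 3 UMIs, or 18.0 CPM over the group, which makes the level at least 19.0-fold higher over the pooled CIA cells and at least 6.98-fold higher at the median CIA mouse. Intervals and limits of this kind cover counting error only.
In the edgeR quasi-likelihood fit over every gene with a UMI, *Cxcl5* was higher in CIA (log2 change 9.37 ± 1.14 SE, adjusted p = 1.42e-12), where the fitted size rests on the zeros and is no bound. It was the only member of 10 called, and 0.52% of the 19235 genes of that fit were called in either direction, as were 1.68% of the 1014 genes that passed the filter on low counts. The call was held in all 12 alternatives that gave an adjusted p, and the weakest was without S3 (log2 change 6.89, adjusted p = 0.00132). Of these 12, no filter and at least 20 cells per mouse repeated the main fit for this gene. The experiment CIA alone could not be run, since S5 was its only CIA mouse with enough fibroblasts. DESeq2 gave this gene no adjusted p. S6, left out here with only 9 fibroblasts, had 10 UMIs in 3 of them, and S8 had 4 fibroblasts and no UMI in them.

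**Figure D2:**
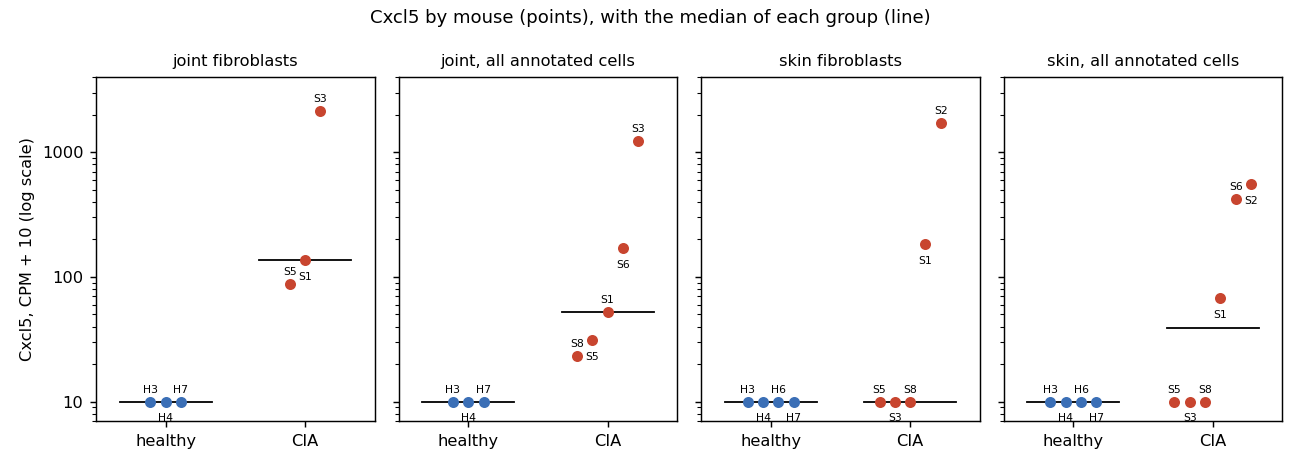
*Cxcl5* level of each mouse (points, CPM + 10 on a log axis) in fibroblasts and in all annotated cells of joint and skin, with the median of each group (line). Every healthy mouse was at 0 in all 4 panels, every CIA mouse shown for the joint was above 0, and in the skin only S1, S2, and S6 had UMIs.

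The other ligands of joint fibroblasts differed by less than the spread between mice or did not pass the test. *Cxcl2* was at 174 CPM in H3, 0 in H4, and 336 in H7 and at 359, 889, and 535 CPM in S1, S3, and S5. The groups did not overlap, which can arise by chance among so few mice, and the change was not called (log2 change 1.87 ± 0.80, adjusted p = 0.269). With no filter on low counts it was (2.30, adjusted p = 0.0187).
RNA of granulocytes moved with the groups in these cells. The 4 granulocyte markers *Camp*, *Ngp*, *S100a8*, and *S100a9* were all detected in both groups, and their summed level in fibroblasts was 1393 to 5900 CPM in healthy and 13231 to 29491 CPM in CIA mice. At the ratio of *Cxcl2* to these markers in granulocytes and neutrophils of the same mouse, that would carry 8.197 to 23.5 CPM of *Cxcl2* in healthy and 94.7 to 194 CPM in CIA fibroblasts, less than was measured in each mouse but H4. For *Cxcl5* the same ratio gave at most 4.51 CPM, in S3. Whether such RNA had a part in the *Cxcl2* difference was not tested further.
*Cxcl1* overlapped between the groups, at 1773, 511, and 1682 CPM in H3, H4, and H7 and at 1165, 3774, and 1230.3 CPM in S1, S3, and S5 (log2 change 0.62 ± 0.59, adjusted p = 0.605). *Cxcl12* was at 348 to 526.4 CPM in healthy and 305 to 714 CPM in CIA fibroblasts (adjusted p = 0.876), and *Cxcl14* at 673 to 1139.5 and 638 to 1836 CPM (adjusted p = 0.590). The median change of the 10 members was 1.25, beside 0.63 for all genes in that fit.

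Over all annotated cells of the joint, *Cxcl2* was higher in every CIA mouse. The healthy mice were at 690.4 (H3), 249 (H4), and 569.98 CPM (H7). The CIA mice were at 1232 (S1), 1344 (S3), 2156 (S5), 1592 (S6), and 1289 CPM (S8), and the groups did not overlap. The change was 1.79 ± 0.46 on the log2 scale and was not called by edgeR (adjusted p = 0.147, beside 0.127% of the 2364 genes that passed the filter), but it was by DESeq2 (1.74, adjusted p = 0.00294). Plain library size in place of TMM factors lowered it to 1.54, as this scaling moved the median member by -0.25 in the same comparison. A sum over all cells mixes cell numbers with RNA per cell, and fewer cells of a type and less RNA per cell cannot be told apart in it.
The share of granulocytes and neutrophils among annotated joint cells was 13.9%, 3.14%, and 9.72% in H3, H4, and H7 and 26.8%, 17.5%, 54.2%, 15.8%, and 54.2% in S1, S3, S5, S6, and S8. They held 26.6% to 28.6% of the *Cxcl2* UMIs in the healthy joints and 12.7% to 76.1% in CIA joints. An alternative chosen after the data were seen left these cells out. *Cxcl2* was then at 184 to 585 CPM in healthy and 743 to 1344 CPM in CIA joints, without overlap. RNA of granulocytes in other cells is not removed in this way, and its part in the difference was not tested.

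*Cxcl5* over all annotated joint cells was at 0 in the 3 healthy mice (404 cells) and at 42.3, 1214, 21.2, 159, and 13.02 CPM in S1, S3, S5, S6, and S8. The highest value, in S3, came from 150 UMIs and the lowest, in S8, from a single UMI. The level was at least 13.4-fold higher over the pooled cells and at least 5.52-fold higher at the median mouse. It was called (log2 change 9.14 ± 1.29, adjusted p = 1.07e-08, DESeq2 adjusted p = 0.033), as were 0.274% of all genes in that fit, but not without H3, H4, or H7 (adjusted p up to 0.628) and not within the experiment CIA alone (0.842).

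*Cxcr2* was the other member called over all joint cells (log2 change 4.52 ± 1.13, adjusted p = 0.0265). It was at 5.57 CPM in H3 and 0 in H4 and H7, and at 65.8, 32.4, 92.6, 0, and 13.02 CPM in S1, S3, S5, S6, and S8. The mice of both groups overlapped, since S6 had no UMI. In all, 156 UMIs in CIA stood against 1 in healthy joints, a ratio of depth-scaled levels of 29.4 with a 95% exact counting interval of 5.20 to 1169.
This call was held in 5 of 13 alternatives and was lost without any of H3, H4, H7, S1, and S5, with plain library size (adjusted p = 0.0526), with the experiment as a term (0.0757), and within the experiment CIA alone (0.601). Granulocytes and neutrophils held 78.6% of its UMIs in S1 and 89.9% in S5, and all 4 in S3. Without those cells *Cxcr2* was at 0 in all 3 healthy mice and in S3, S6, and S8, at 18.2 CPM in S1 and at 17.6 CPM in S5.

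The remaining members overlapped between CIA and healthy joints and were not called. *Cxcl1* ranged from 470.3 to 1001 CPM in healthy and from 78.1 (S8) to 2372 CPM (S3) in CIA joints (adjusted p = 0.80). *Cxcl12* was at 195 to 249 and 0 to 413 CPM, and *Cxcl14* at 389 to 434 and 26.03 to 1085 CPM. S8, the lowest mouse for all 3, had only 4 fibroblasts among 83 cells.
*Cxcr4* was at 150.3, 35.6, and 41.7 CPM in H3, H4, and H7 and at 98.6, 97.1, 201, 175, and 143 CPM in S1, S3, S5, S6, and S8 (log2 change 1.04 ± 0.56, adjusted p = 0.518). *Cxcl3* had 3 UMIs in healthy and 31 in CIA joints, *Cxcl13* 3 and 26, and *Cxcl16* 9 and 59.

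**Figure D3:**
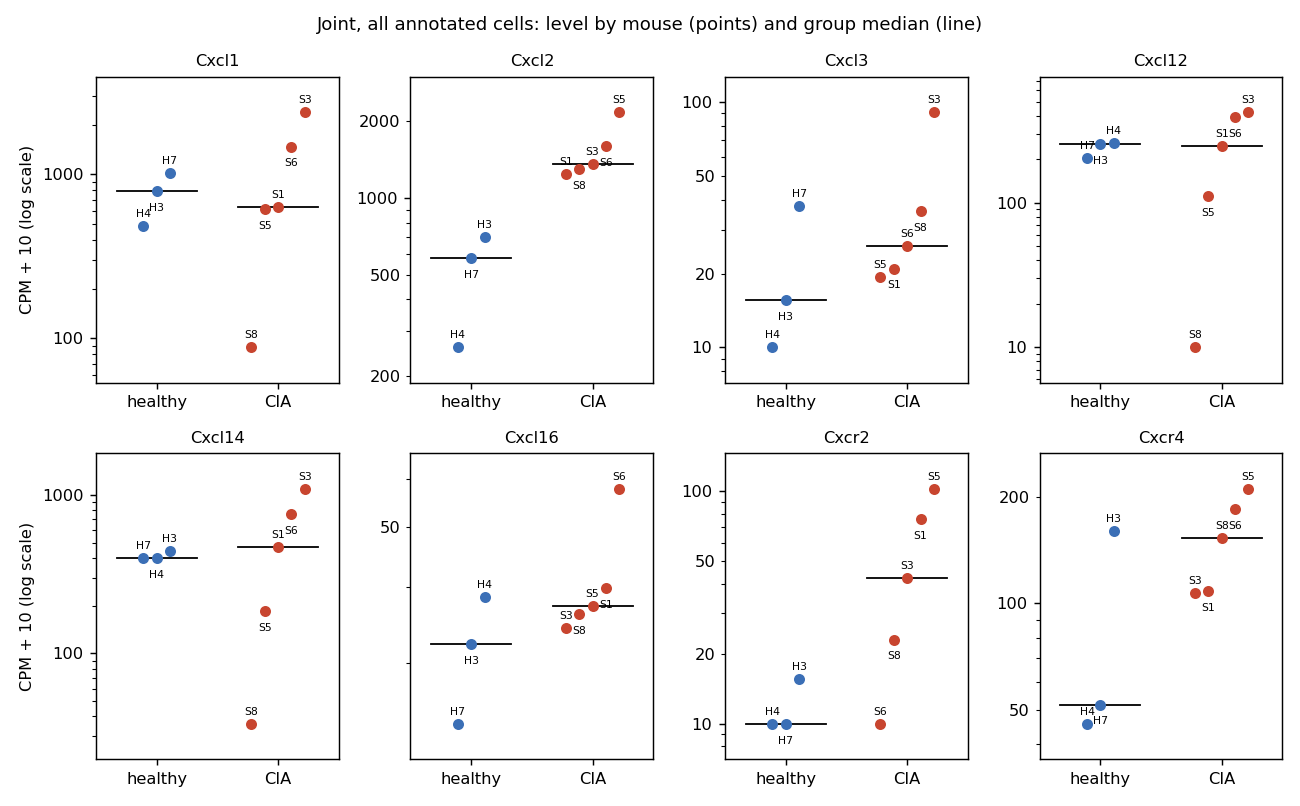
Level of 8 members in each joint over all annotated cells (points, CPM + 10 on a log axis; lines are group medians of 3 healthy and 5 CIA mice). The CIA mice lay above all healthy mice for *Cxcl2*, whereas the groups overlapped for the other genes shown.

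In macrophages of the joint no member was called (10.3% of the 273 genes that passed the filter were called in either direction, and 0.0714% of every gene with a UMI). *Cxcl2* was at 1452, 1513, and 899 CPM in H3, H4, and H7 and at 1737, 4026, 1807, and 1254 CPM in S1, S3, S5, and S8 (log2 change 0.73 ± 0.44, adjusted p = 0.421). *Cxcr4* was at 84.0 to 169 CPM in healthy and 188 to 311 CPM in CIA macrophages, which did not overlap (1.43 ± 0.78, adjusted p = 0.608), on 9 and 69 UMIs. *Cxcl14* did not overlap in the other direction, on 6 and 10 UMIs (-0.74 ± 1.03, adjusted p = 0.680). *Cxcl13* was counted only in S5, with 20 UMIs in 3 of 110 cells. All 4 granulocyte markers were detected in these macrophages too, at 924 to 8229 CPM in healthy and 33192 to 59263 CPM in CIA mice. At the granulocyte ratio they would carry 5.44 to 41.9 and 187 to 312 CPM of *Cxcl2*, and their part in the other values was not tested.

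In skin fibroblasts, *Cxcl5*, *Cxcl12*, and *Cxcl14* were called, all higher in CIA, and each call was lost without S2. *Cxcl5* had no UMI in the 4 healthy mice (128 cells) nor in S3, S5, and S8, and was at 173 CPM in S1 and 1693 CPM in S2, with 127 UMIs in 20 of 64 cells of S2. The median CIA mouse was thus at 0, and 94.8% of the UMIs were in S2. The change (log2 7.23 ± 0.97, adjusted p = 3.65e-10) was lost without S2 (3.87, adjusted p = 0.613) and with the experiment as a term (adjusted p = 0.16). S6, left out with 8 fibroblasts, had 10 *Cxcl5* UMIs in 2 of them, and with at least 5 cells per mouse the call was held (7.14, adjusted p = 3.39e-08).
*Cxcl12* was at 212, 44.3, 24.8, and 26.4 CPM in H3, H4, H6, and H7 and at 444, 1106, 263, 222, and 127 CPM in S1, S2, S3, S5, and S8. Each CIA mouse was above H4, H6, and H7, but H3 was above S8. The change was 3.15 ± 0.62 on the log2 scale (adjusted p = 0.00109) and 2.09 without S2 (adjusted p = 0.613). It was also lost without H6 or H7, with the experiment as a term (2.11, adjusted p = 0.927), and within the experiment CIA alone (2.10, adjusted p = 0.823).
*Cxcl14* was at 159, 0, 74.5, and 132 CPM in the healthy mice and at 789, 1239, 105, 222, and 42.2 CPM in the same CIA mice. Here the groups overlapped, with S3 and S8 among the healthy values (2.80 ± 0.57, adjusted p = 0.00204, and 1.83 without S2, adjusted p = 0.613). It was also lost without H4, with at least 5 cells per mouse (2.51, adjusted p = 0.0796), with the experiment as a term (1.49, adjusted p = 0.927), and within the experiment CIA alone (0.39, adjusted p = 0.882). These 3 of the 9 members with a UMI stand beside 0.0766% of the 15661 genes called in either direction. DESeq2 called neither *Cxcl12* nor *Cxcl14* (adjusted p = 0.993 for both) and gave *Cxcl5* no adjusted p.

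S2 also had the highest *Cxcl1* (4785 CPM) and *Cxcl2* (2012.5 CPM) among CIA skin fibroblasts, but H3 was at 5237 and 1058 CPM, and neither gene was called. Granulocyte markers were scarce in these cells (0 to 26.4 CPM in healthy and 0 to 493.1 CPM in CIA mice), with *Ngp* at 0 in both groups and *S100a9* at 0 in the healthy mice. Over all annotated skin cells *Cxcl5* was called (log2 change 7.26 ± 0.88, adjusted p = 1.14e-12), with 57.6 CPM in S1, 542 in S2, and 408 in S6, and 0 in the other 7 mice. This was at least 26.1-fold higher over the pooled cells, and 87.8% of the UMIs were in S2. Only 3 of the 6 CIA mice had a UMI, so that no bound is given for the median mouse. DESeq2 did not call it (6.32, adjusted p = 0.998). *Cxcl12* was called too (1.91 ± 0.47, adjusted p = 0.0274), beside 0.152% of the 21082 genes, with 8.29 to 94.96 CPM in healthy and 0 to 374 CPM in CIA mice, and 8 of 17 alternatives held that call. It was lost without H4, H6, H7, S1, or S2, with DESeq2 (1.53, adjusted p = 0.998), with the experiment as a term (0.87, 0.914), within the experiment CIA alone (0.31, 0.949), and with the mouse number as a block.

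Keratinocytes held *Cxcl1* and *Cxcl16* in the skin. In basal III cells *Cxcl1* ranged from 123 to 1414 CPM with a median of 1097 in 4 healthy mice and from 721 to 2218 with a median of 1209 in 6 CIA mice, and *Cxcl16* from 41.1 to 152 and 24.6 to 138 CPM. Both overlapped widely. No member was called there, beside 0.0818% of the 18338 genes.

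In the lung no member was called either, beside 6.51% of the 538 genes that passed the filter in macrophages (0.193% of every gene with a UMI) and 4.96% of those over all lung cells (0.435%). *Cxcl2* in lung macrophages was at 1663, 1925, 2029, and 1791 CPM in H3, H4, H6, and H7. The CIA mice ranged from 1597 (S2) to 5784 CPM (S3) with a median of 3412. All but S2 were above the healthy mice, and the change was 0.81 ± 0.31 on the log2 scale (adjusted p = 0.141).
*Cxcl3* was at 86.0, 96.3, 119, and 326 CPM in the healthy mice and ranged from 96.8 (S2) to 1109 CPM (S5) with a median of 484 in CIA mice (1.71 ± 0.61, adjusted p = 0.123). It was called without H7 (2.28, adjusted p = 0.0452), without S2 (2.00, 0.0294), and with the experiment as a term (2.03, 0.0444). Granulocyte markers in these macrophages were at 356 to 545 CPM in healthy and 580.05 to 14701 CPM in CIA mice. At the ratio in granulocytes and neutrophils of the same mouse, they would carry 793 of the 2162 CPM of *Cxcl2* in S1. In S5 they would carry 160 of 4644 CPM. The ratio rests on only 3 such cells in S1 and 2 in S5. S6 had 1 such cell, without a *Cxcl2* UMI, and the other lungs had none. The part of this RNA in the ligand values was not tested.
*Cxcl16* of lung macrophages, which held 91.8% of its lung UMIs, had a negative change and overlapped between the groups. It was at 86.0, 154, 149, and 163 CPM in H3, H4, H6, and H7 and at 0 (S6) to 158 CPM (S3) in CIA mice, on 29 and 16 UMIs (-1.18 ± 0.60, adjusted p = 0.586).
*Cxcl14* of these macrophages was also at lower values in CIA, with 14 UMIs over all 4 healthy mice and 1 over the 6 CIA mice (-3.48 ± 1.04, adjusted p = 0.213).

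In the spleen, *Cxcl2* of monocytes did not overlap between the groups. It was at 103, 63.6, 0, and 40.8 CPM in H3, H4, H6, and H7, and at 105 (S6) to 706 CPM (S3) in CIA mice with a median of 245. The change of 2.32 ± 0.67 was not called (adjusted p = 0.0953, beside 0.485% of every gene with a UMI and 6.36% of those that passed the filter), but was by DESeq2 (adjusted p = 0.0469) and with plain library size (0.0112).
The 4 granulocyte markers in monocytes were at 722 to 1021 CPM in healthy and 2679 to 24005 CPM in CIA mice. At the ratio of granulocytes in the same mice this would carry 0 to 49.1 CPM of *Cxcl2* in CIA monocytes, below the measured value in each of the 6 mice. The ratio rests on as few as 5 granulocytes, in S6, which held no *Cxcl2* UMI. Whether such RNA had a part in the *Cxcl2* difference was not tested. No member was called in spleen B cells (0.0831% of every gene with a UMI), natural killer cells (0.0971%), or all spleen cells (0.747%, and 0.137% of those that passed the filter).

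In muscle *Cxcl12* of fibroblasts was at 0 in H3, H6, and H7 and 230 CPM in H4, and at 910, 618, 423, and 254 CPM in S1, S2, S5, and S6. The groups did not overlap, and the change of 3.55 ± 0.89 was not called (adjusted p = 0.176), where 0.0117% of the 17122 genes were. It rested on 3 UMIs in healthy and 128 in CIA mice. *Cxcl2* over all muscle cells was at 214, 781, 553, and 1264 CPM in healthy mice and at 111 to 676 CPM with a median of 177 in CIA mice, the opposite direction to the joint (-1.51 ± 0.58, adjusted p = 1.00). The share of granulocytes and neutrophils moved with the groups here too, at 7.14%, 28.0%, 20.0%, and 20.7% of annotated muscle cells in the healthy mice and 0.575% to 4.47% in CIA mice, and they held 50.0% to 75.0% of the healthy *Cxcl2* UMIs. These cells were again left out in an alternative chosen after the data were seen. *Cxcl2* was then at 58.1 to 521 CPM in healthy and 83.7 to 677 CPM in CIA muscle, which overlapped. The part of granulocyte RNA in the muscle change was not tested. Muscle samples differed in red cell lysis. No member was called in the muscle comparisons, beside 0.25% of every gene with a UMI over all cells (0.055% of those that passed the filter), 0.0685% in macrophages (0.183%), and 0.147% in T cells (0.0511%).

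**Figure D4:**
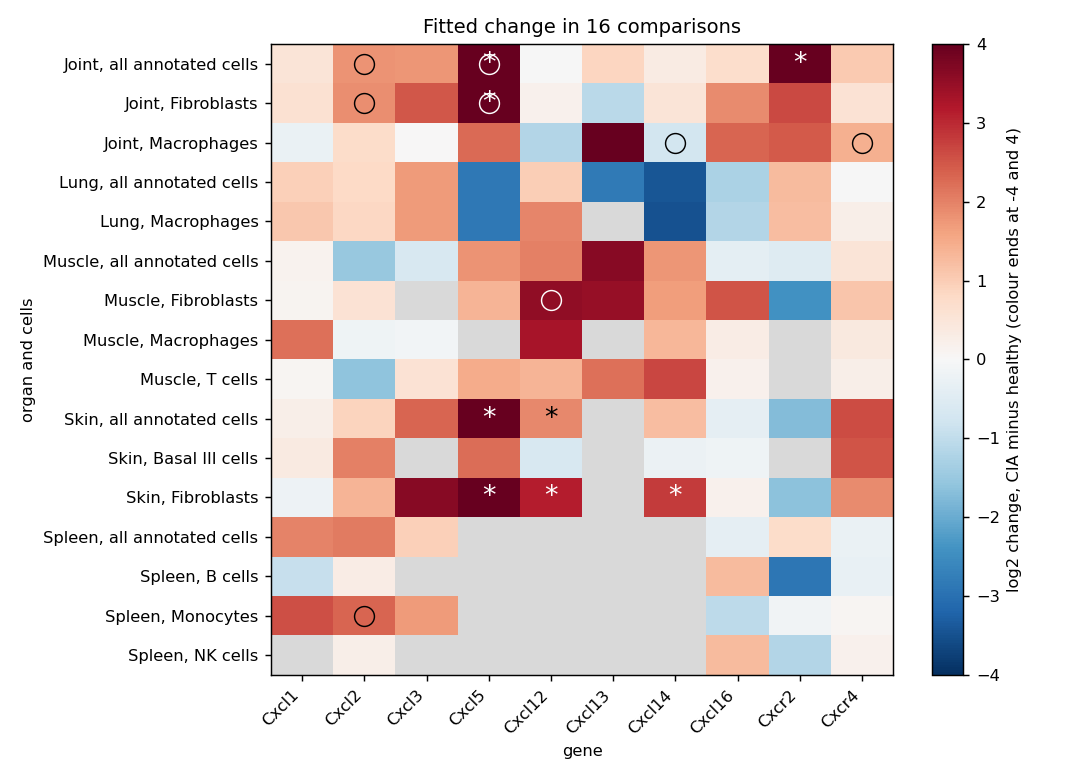
Fitted log2 change of each member (columns), CIA minus healthy, in the 16 comparisons (rows; colours end at -4 and 4, grey means no UMI). Stars mark an adjusted p under 0.05. Circles mark groups of mice that do not overlap, which was not tested. The 8 calls, on *Cxcl5*, *Cxcl12*, *Cxcl14*, and *Cxcr2*, were all in joint and skin and all from the fit over every gene with a UMI.

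In all, 4 of 16 comparisons of CIA with healthy mice had a member called, and 8 of 130 values of a member in a comparison passed. None came from a fit of filtered genes. The test of whether the disease change differed between organs gave no call for any member, either for fibroblasts of joint and skin (0.0134% of every gene with a UMI called) and of joint and muscle (0.0446%, and 0.176% of filtered genes), or for macrophages of joint and lung (0.11% of filtered genes) and of joint and muscle (2.41%, and 0.0932% of every gene). For *Cxcl12* in fibroblasts the difference of joint from muscle was -3.18 ± 1.19 (adjusted p = 0.335).

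*Cxcl14* was higher in joint than in skin fibroblasts over healthy and CIA mice together (log2 difference 2.42 ± 0.53, adjusted p = 0.00138), with 638 to 1836 CPM and a median of 918 in 6 joints and 0 to 1239 CPM and a median of 132 in 9 skins. Only S1 and S2 of the skins reached into the joint range. *Cxcl12* was higher too (1.64 ± 0.50, adjusted p = 0.0178), with a median of 426 CPM in joint and 212 in skin. The organs overlapped, at 305 to 714 CPM in the joints and 24.8 to 1106 CPM in the skins. Mean levels over mice were 412 CPM in joint and 76.8 CPM in skin of healthy mice. In CIA mice they were closer, at 503 and 432 CPM.
These 2 of 10 members stand beside 24.3% of the 1134 genes that passed the filter and 2.04% of every gene with a UMI, called in either direction, so that the share of members called was not above that of the filtered genes. The *Cxcl14* call was held in all 16 alternatives and the *Cxcl12* call in 12, being lost without H4, H6, H7, or S1 (adjusted p up to 0.0783). Against muscle fibroblasts no member was called, beside 4.14% of filtered genes and 0.526% of every gene with a UMI, and with no filter both *Cxcl12* (2.10, adjusted p = 0.0196) and *Cxcl14* (1.65, adjusted p = 0.0173) were.

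*Cxcl3* was the member called between macrophages of joint and lung. It was at 86.0 to 1109 CPM with a median of 317 in 10 lungs and at 0 to 62.7 CPM with a median of 21.3 in 7 joints, and the organs did not overlap. The difference, joint minus lung, was -3.52 ± 0.68 (adjusted p = 4.06e-04) beside 15.6% of the 913 genes that passed the filter (0.721% of every gene with a UMI), a share that 1 of 10 members does not exceed, and was held in all 16 alternatives. *Cxcl2* was lower in joint macrophages by less (-0.68 ± 0.29, adjusted p = 0.121), and passed with the mouse as a block (-0.84, adjusted p = 0.0348). No member was called between joint and muscle macrophages (1.64% of filtered genes and 0.123% of every gene).

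The receptor *Cxcr2* was restricted to few cells. It had 281 UMIs in 224 cells, 62.3% of them in granulocytes, 13.5% in cells labelled dendritic, and 9.61% in neutrophils. In joint granulocytes 102 of 759 cells (13.4%, and 7.17% after thinning to 400 UMIs) had a *Cxcr2* UMI, against 1 of 603 joint fibroblasts (0.166%) and 4.26% of 258 joint endothelial cells. The median depth was 830 UMIs in granulocytes, 965 in fibroblasts, and 764.5 in endothelial cells.
By mouse, *Cxcr2* in joint granulocytes was at 41.7 CPM in H3, the only healthy mouse with 10 of them, and at 217, 256, 172, and 23.6 CPM in S1, S3, S5, and S8. S8 lay below H3, and H3 rests on a single UMI, so that the groups were not tested. The 38 UMIs of cells labelled dendritic were nearly all from the spleen (36), 22 of them in S2 and 8 in H4. Their label is uncertain, since the markers used for it were higher in monocytes.

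Granulocytes with a *Cxcr2* UMI held more *Cxcl2* than those without in the same library, in each library with at least 20 such cells. In the joint of S1 *Cxcl2* was at 4169 CPM in 26 cells with a *Cxcr2* UMI and 2560 CPM in 133 without (1.63-fold), and in the joint of S5 at 5220 CPM in 72 and 3211 CPM in 417 cells (also 1.63-fold). In the spleen of S2 it was at 1797 CPM in 20 granulocytes with and 828 CPM in 127 without (2.17-fold), and 2.86-fold higher in 21 of the cells labelled dendritic.
*Il1b*, the cytokine interleukin-1β, was 1.89-fold and 2.67-fold higher in the cells with *Cxcr2* in the joints of S1 and S5 and 3.71-fold in the spleen cells labelled dendritic, but 0.775-fold in spleen granulocytes. *Camp*, a protein of granules made by immature neutrophils, was lower in the cells with *Cxcr2* in all of these (0.698-fold to 0.904-fold). *Ngp*, another such granule protein, was lower in 3 of the 4 sets (0.668-fold to 0.947-fold) and at 1.07-fold in the joint of S1. *Ltf*, lactoferrin, was lower in 1 of the 4, the joint of S5 (4966 CPM with and 5721 CPM without). The cells come from 3 mice and are not replicates, so that these ratios carry no test.

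**Figure D5:**
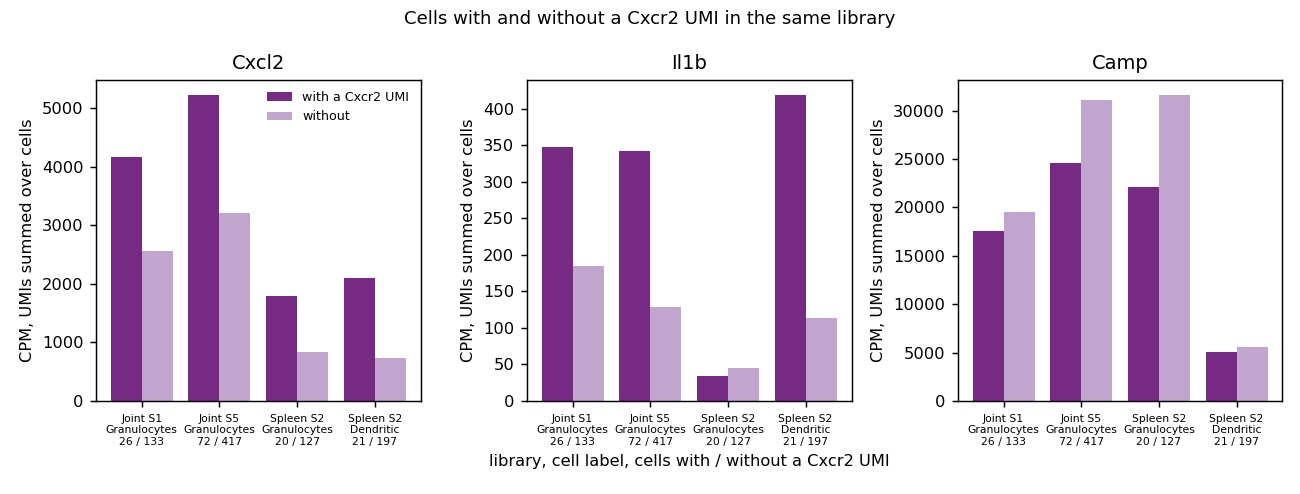
Levels of *Cxcl2*, *Il1b*, and *Camp* (CPM of the summed UMIs) in cells with (dark bars) and without (light bars) a *Cxcr2* UMI in the same library, with the number of cells of each kind under the bars. *Cxcl2* was higher and *Camp* lower in the cells with *Cxcr2* in all 4 sets, whereas *Il1b* was higher in 3 of them.

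*Cxcr4* was broader and more abundant, with 2186 UMIs in 1750 cells. It was counted in 25.6% of cells labelled myocytes in muscle, 19.4% of spleen B cells, 19.7% of joint macrophages, 16.9% of muscle T cells, and 16.3% of joint granulocytes, against 0.563% of skin basal III cells. Most of the muscle cells labelled myocytes, 1492 of 1604, came from S6 alone. In joint granulocytes *Cxcr4* was at 417 CPM in H3 and at 196, 256, 219, and 118 CPM in S1, S3, S5, and S8, with H3 highest on 10 UMIs.
Of the cells with *Cxcr2* in joint granulocytes, 3 of 26 in S1 and 15 of 72 in S5 also had a *Cxcr4* UMI. Cells with *Cxcr4* did not hold more *Cxcl2* in the way that cells with *Cxcr2* did, with ratios of 0.919 in S1 and 1.10 in S5. In spleen B cells *Cxcr4* was at 375 to 486 CPM in healthy and 179 to 655 CPM in CIA mice, which overlapped.

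The label with the most UMIs was the same for *Cxcr2* and its ligand *Cxcl2* (granulocytes) but not for *Cxcr2* and *Cxcl5*, nor for *Cxcr4* and its ligand *Cxcl12*. *Cxcl12* was in fibroblasts and endothelial cells, which held 3.02% and 2.70% of the *Cxcr4* UMIs, and *Cxcr4* mainly in white cells and in cells labelled myocytes. Over the pooled cells of all mice, *Cxcr4* in fibroblasts was at 22.6 CPM in the joint, 23.2 CPM in the skin, and 110 CPM in muscle (42 UMIs in 32 of 377 cells). It was not called between joint and muscle fibroblasts, and muscle was not compared with skin. The scavenging receptor of Cxcl12, *Ackr3*, had most of its UMIs under the same label as the ligand, with 71.6% of its 328 UMIs in fibroblasts. Whether single cells held both was not examined. *Cxcr5*, the receptor of Cxcl13, had 243 UMIs, mostly in cells labelled myocytes (97), B cells (63), and T cells (47), and *Cxcr6*, the receptor of Cxcl16, had 160, with 73 in T cells. *Ackr1*, which takes up Cxcr2 ligands at vessels, had 64 UMIs, 40 of them in endothelial cells.

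Of the other CXC ligands and receptors (13 genes, 11 with UMIs, *Cxcl17* and *Cxcr1* at 0), only *Pf4* was called between CIA and healthy mice in the 16 comparisons, lower in joint macrophages (-2.29 ± 0.63, adjusted p = 0.0491), where 10.3% of the filtered genes were called. Between organs, *Pf4* was higher (5.12) and *Cxcl15* lower (-6.90) in joint than in lung macrophages. Of the neutrophil signals and receptors (16 genes, 15 analysed here), those called included *Fpr2*, a receptor for bacterial peptides, which was higher over all spleen cells (3.12 ± 0.74, adjusted p = 0.00532), where 0.747% of every gene with a UMI were called.
None of these 15 was called in the joint, although their median change over all joint cells was 1.55, against 0.35 for all genes. *Il1b* was at 39.0 to 89.2 CPM in CIA and 0 to 33.4 CPM in healthy joints, without overlap (2.47 ± 0.83, adjusted p = 0.311). *Csf3r*, the receptor of the growth factor for granulocytes, was at 8.09 to 52.7 CPM in CIA and 0 to 13.9 CPM in healthy joints (2.79 ± 1.08, adjusted p = 0.441). Of 8 genes of NF-κB feedback and mRNA decay, *Nfkbia* was called in joint macrophages, lower in CIA (-1.26 ± 0.35, adjusted p = 0.04997), as were 10.3% of the filtered genes there, and none in the other 15 comparisons.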

How the data were processed

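UMI counts per gene and cell were deposited by the authors without normalization; reads had been mapped with STAR to GRCm38, the mouse genome, and UMIs counted with the Drop-seq tools before cells were filtered. The labels of cell type, organ, and disease were deposited as text; the authors derived cell types from denoised counts, reference profiles, clusters, and marker genes. The GEO labels also list other genome builds with no role stated, and no coordinate was taken from them. Gene positions were taken from GENCODE vM21 and promoter stretches from RefSeq. Doublets were not removed here.

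Counts were summed per mouse, organ, and label, for mice with at least 10 cells, and tested with edgeR 4.0.16 (quasi-likelihood F test, TMM, filterByExpr) in R 4.3.3 where at least 3 healthy and 3 CIA mice qualified, with Benjamini-Hochberg adjustment and a threshold of 0.05. For members below the filter, the values come from a fit of the same model to every gene with at least 1 UMI. For them the alternative with no filter is the same fit. In that fit genes with UMIs in 1 or 2 mice can reach very small p-values, and the counts per mouse are given for this reason. Organs were compared within a label by a fit of organ by disease groups. CPM are counts per 1000000 UMIs of the same cells. Groups that do not overlap are described without a test, and the share of all genes that did so was not counted. Each standard error is the log2 change divided by the square root of its F value. Samples of different organs come from the same mice, and deviations of same-animal samples correlated between -0.20 and 0.24 over 22 pairs. The fits were also run on simulated counts, in which only genes that passed the filter were changed. These simulations do not show how changes of genes below the filter are found. Every call of a member between CIA and healthy mice was of such a gene. As another tool, DESeq2 1.42.0 was run. All other steps used Python 3.11.15 (numpy 2.4.6, scipy 1.17.1, pandas 2.3.3, and matplotlib 3.10.9).

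Named genes were the 10 members, the calls among 3 lists of other chemokine, neutrophil, and NF-κB genes, and the nearest genes by Pearson correlation of log2(CPM + 10) over profiles of at least 20 cells. *Il1b*, *Csf3r*, *Camp*, *Ngp*, and *Ltf* were named after their values were seen. The members and lists were chosen with earlier results of these data known. The alternatives were DESeq2, RLE factors, plain library size, no filter, a minimum of 5 or 20 cells, a term for the experiment, the experiment CIA alone, the mouse or its number as a block, thinned cells, pooled cells, and leaving out each mouse. *Itgam* was not analysed here, and the calls of 1 other listed gene are not reported here.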

Additional observations from a re-analysis of the deposited data

Results flagged for a closer look

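Of 91 groups of 4 to 6 mice tested for a single mouse far from the others (Dixon's criterion, members with at least 20 UMIs in the group), 15 were flagged. Chance flags about 1 in 20 where values are independent and normally distributed. Some groups here hold zeros or few UMIs, and groups share cells, so that the number flagged cannot be set against that rate. The part of the flagged mice in the comparisons is given by the values without each mouse.

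In the joint, S3 was far above the other CIA mice over all annotated cells for *Cxcl5* (1214 CPM, next 159 in S6) and *Cxcl3* (80.9 CPM, next 26.03). S6 was highest for *Cxcl16* at 47.8 CPM, on 3 UMIs. In joint macrophages S5 alone had *Cxcl13* (152 CPM), from 3 cells.

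In the skin, S2 stood apart in fibroblasts for 3 ligands of Cxcr2, with 1693 CPM of *Cxcl5* (next 173 in S1), 4785 CPM of *Cxcl1* (next 1751), and 2012.5 CPM of *Cxcl2* (next 506 in S8). The joint of this mouse was not analysed here, so that the same cells of its joint could not be set beside it. S6, with only 8 skin fibroblasts, was not among the mice compared.

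In the muscle, S5 was highest over all annotated cells for *Cxcl1* (902 CPM), *Cxcl2* (676 CPM), and *Cxcl14* (738 CPM), and in macrophages for *Cxcl1* (643 CPM). Its muscle library held 174 fibroblasts among 348 cells. In the lung, H7 was above the other healthy mice for *Cxcl3* in macrophages (326 CPM, next 119) and over all cells (292 CPM, next 103), and S5 had no *Cxcr4* UMI (0 CPM, next 215 in S2). In spleen B cells, S3 had 583 CPM of *Cxcl2* from 8 UMIs in 24 cells.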

How the results depend on the processing

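Counts of members called changed as follows. Joint fibroblasts had 1, and 0 with DESeq2, which gave *Cxcl5* no adjusted p, and 2 with no filter. All joint cells had 2, and 1 with plain library size or the experiment as a term and 0 within the experiment CIA alone. Skin fibroblasts had 3, and 0 with DESeq2, with the experiment as a term, and within the experiment CIA. All skin cells had 2, and 0 with DESeq2, within the experiment CIA, or with the mouse number as a replicate block, and 1 with the experiment as a term. Several comparisons without a call gained some: lung macrophages 1 with the experiment as a term and 2 with the mouse number as a block, all lung cells 1 with either use of the experiment, all muscle cells 1 within the experiment CIA, spleen monocytes 1 with DESeq2, RLE factors, or plain library size, all spleen cells 1 and joint against muscle fibroblasts 2 with no filter, and joint against lung macrophages, which had 1, had 2 with the mouse as a block. Leaving out 1 mouse gave 0 to 2 calls in all joint cells, lung macrophages, and all lung cells, 0 to 3 in skin fibroblasts, 1 to 2 in all skin cells, joint against skin fibroblasts, and joint against lung macrophages, 0 to 1 in spleen monocytes, skin basal III cells, muscle fibroblasts, muscle T cells, all muscle cells, joint against muscle fibroblasts, and joint against muscle macrophages, and 1 in joint fibroblasts. The causes were not tested.

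The number of the mouse was shared by different animals of both groups (r of deviations from -0.29 to 0.32 over 9 pairs), so the block on it is not a pairing. With it, *Cxcl12* over all skin cells went to -1.04 (adjusted p = 1.00), the only reversal among the values of single members, of which 3208 kept their side of the threshold, 30 passed, and 41 no longer passed. With the mouse as a block, *Cxcl14* and *Cxcl12* of joint against skin fibroblasts were 2.27 (adjusted p = 0.00341) and 1.54 (0.0290), and *Cxcl3* of joint against lung macrophages was -3.78 (9.24e-05). The share of cells with a UMI fell by more than its counting interval in 70 of 74 cases after thinning to 400 UMIs. Mean levels over mice held in 150 of 154 cases, and *Cxcl2* in joint granulocytes, at 2062 CPM, was 3158 CPM with all cells pooled, since S5 held most of them.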

Other observations

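Joint fibroblasts with a *Cxcl5* UMI were most frequent in S3, the severe mouse with the fewest fibroblasts (28 of 56 cells), and rare in S5 (7 of 160), although the share of granulocytes and neutrophils was 17.5% in S3 and 54.2% in S5. The joint with the most *Cxcl5* was therefore not the joint with the most granulocytes among the mice sampled. With 5 CIA joints and severity tied to the experiment, no relation between them was tested.

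In the lung, *Cxcl15*, which draws neutrophils into airways, had 122 UMIs, 119 of them in cells labelled macrophages. The labels included none for lung epithelium. *Ppbp*, made by platelets, had 3 UMIs in all organs, and *Pf4*, another platelet chemokine that some tissue macrophages also express, had 342.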
